A study of Mus musculus with 7 samples.

Results

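A single mouse liver, taken from a vehicle-treated animal and carrying the word Cancer in its label, was set against the livers of the other vehicle-treated animals. It was 1 of 7 liver RNA samples, sequenced in bulk, and it had no replicate. The Cancer-labelled library was vehicle replicate 6. It was compared with vehicle replicates 1, 3 and 4, and MSC replicates 0, 1 and 2 served as a further reference. All samples came from male wild-type C57BL/6j mice fed a Western-type WD diet with 40% fat, 20% fructose and 2% cholesterol from 5 weeks of age, labelled as a model of nonalcoholic steatohepatitis (NASH). The Cancer-labelled and vehicle mice received 1 tail-vein injection of PBS after 32 weeks of feeding, the MSC mice received human umbilical cord-derived mesenchymal stromal cells instead, and livers were taken after 40 weeks. The labels do not say what the word Cancer refers to, whether a tumour or the surrounding liver was sampled, or outright that each library is a separate animal. No chow-fed liver was analysed here, so every value below is a difference within a group of mice on the same diet.

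The values were FPKM, fragments scaled for transcript length and library size, as the authors deposited them. Genes entered when they reached 1 FPKM in the Cancer-labelled library or in all 3 vehicle libraries. Of 27810 genes in the table, 12111 did so. Of these, 9338 met the rule on both sides, 2703 only through the Cancer-labelled library and 70 only through the vehicle libraries. The rule favours a higher level on the side through which a gene entered alone. Differences are on the log2(FPKM + 1) scale, which understates the change of low genes, and p-values come from limma over all 12111 genes, with 3 groups and Benjamini-Hochberg adjustment. The single library was assumed to vary like the others, and the p-values measure only the spread between these libraries.

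The liver consists mostly of hepatocytes, which secrete plasma proteins, clear drugs and divide their metabolism between the portal end of the lobule, where urea and glucose are made, and the pericentral end, where glutamine and bile acids are made and drugs are oxidised. A minority of cells line the bile ducts, and in chronic injury duct-like epithelium can spread into the lobule. Male mice secrete major urinary proteins in large amounts, under the control of the pulsatile male pattern of growth hormone. YAP is a transcription coactivator restrained by the Hippo pathway. With TEAD factors it turns on a small set of genes in growing, stretched or injured epithelium.

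Promoters of 3 YAP target genes that were higher in the Cancer-labelled library are shown with that of Mup3, which was lower, because the core motif of TEAD factors occurs in all of them. Each sequence runs 5′ to 3′ on the gene's own strand from 250 bases before to 50 bases after the start of transcription (RefSeq, GRCm38.p6), and capitals mark GGAATG or its reverse complement CATTCC. Ankrd1 lies at chr19:36119795-36120094, Ccn1 at chr3:145649936-145650235, Ajuba at chr14:54577612-54577911 and Mup3 at chr4:62087268-62087567, all on the minus strand.
Ankrd1: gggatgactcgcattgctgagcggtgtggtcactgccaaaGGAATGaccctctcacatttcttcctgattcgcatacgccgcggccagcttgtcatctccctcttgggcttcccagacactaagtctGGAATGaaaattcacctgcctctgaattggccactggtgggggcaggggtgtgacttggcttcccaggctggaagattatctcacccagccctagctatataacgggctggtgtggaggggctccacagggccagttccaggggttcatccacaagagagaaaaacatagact
Ccn1: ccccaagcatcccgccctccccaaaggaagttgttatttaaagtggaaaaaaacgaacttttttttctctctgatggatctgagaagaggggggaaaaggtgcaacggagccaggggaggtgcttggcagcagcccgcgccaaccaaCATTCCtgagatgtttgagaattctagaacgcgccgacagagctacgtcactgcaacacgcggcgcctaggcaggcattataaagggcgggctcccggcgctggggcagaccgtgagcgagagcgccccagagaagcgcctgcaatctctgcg
Ajuba: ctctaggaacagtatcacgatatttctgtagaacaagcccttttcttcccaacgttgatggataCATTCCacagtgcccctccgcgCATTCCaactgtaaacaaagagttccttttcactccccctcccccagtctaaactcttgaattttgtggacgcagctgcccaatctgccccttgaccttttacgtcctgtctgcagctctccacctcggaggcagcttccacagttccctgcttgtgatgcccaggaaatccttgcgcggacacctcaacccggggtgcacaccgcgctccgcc
Mup3: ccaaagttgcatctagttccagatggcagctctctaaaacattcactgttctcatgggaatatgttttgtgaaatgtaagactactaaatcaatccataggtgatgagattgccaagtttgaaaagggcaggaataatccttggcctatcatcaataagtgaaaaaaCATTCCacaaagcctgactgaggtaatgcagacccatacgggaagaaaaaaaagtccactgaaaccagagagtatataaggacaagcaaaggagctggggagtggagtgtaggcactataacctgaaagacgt
Read on both strands, GGAATG was present in 4817 of 32851 RefSeq promoters of this length (14.7%). It was present for 8 of the 15 YAP target genes with a promoter in the table, for 2 of 13 bile duct markers and for 12 of 13 major urinary proteins, whose promoters are close copies of one another. These counts are per gene, with a match in any of its promoters, while the 14.7% is per promoter, so they are not alike. A match is a description of letters only.

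The Cancer-labelled library differed from each vehicle library at more genes than the vehicle libraries did from one another. Among the 8784 genes at 1 FPKM or more in all 7 libraries, 378 to 604 genes differed by at least 1 log2 unit between the Cancer-labelled library and a vehicle library, against 181 to 319 between 2 vehicle libraries. Pairs of MSC libraries differed at 331 to 420 genes and vehicle from MSC libraries at 198 to 577, ranges that overlap with that of the Cancer-labelled library. The nearest vehicle library was replicate 1. The Cancer-labelled library held 12041 genes at 1 FPKM, and the other libraries 9655 to 10931. Its median gene was also higher. The median difference from the vehicle libraries was 0.25 over the 12111 genes and 0.18 over those at 1 FPKM on both sides, and the differences below are to be read against this shift. Centring each library on its median moved that median to -0.06. The summed FPKM of the Cancer-labelled library, 399953, lay within the range of the others. The 7SL RNA gene Rn7s2, a short noncoding RNA, was at 103 FPKM in the Cancer-labelled library and at 1.47 to 5.001 FPKM in the vehicle libraries, and the part of library preparation or RNA quality in the results below was not tested.

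With a difference of at least 1 log2 unit outside the vehicle range, 854 genes were higher (7.05% of those tested) and 147 lower (1.21%). Requiring the Cancer-labelled library to lie outside all 6 other libraries left 827 higher (6.83%) and 121 lower (0.999%). Without a minimum size, the Cancer-labelled library exceeded all 6 others at 5707 of the genes tested (47.1%) and lay below them at 559 (4.62%). It was above the vehicle mean at 9442 genes (78.0%) and below it at 2669. Over all 27810 genes in the table, those under 1 FPKM included, 36.0% were above and 3.65% below all others. In the lists that follow, counts of genes in the table also include genes under 1 FPKM. These shares are therefore their like base, while 47.1% and 4.62% cover only genes that met the rule. In limma 504 genes were higher (4.16%) and 24 lower (0.198%) at an adjusted p below 0.05. Of the 504, 406 met the expression rule only through the Cancer-labelled library, and 98 were at 1 FPKM on both sides. Of the 24, 17 were at 1 FPKM on both sides. The counts depended on how low genes were treated: with genes chosen by 1 FPKM in all 3 MSC libraries, a filter that uses neither side of the comparison, limma called 24 higher and 3 lower, and with a pseudocount of 0.1 it called 9 and 4. Without vehicle replicate 3 it called 277 higher and 11 lower, and without vehicle replicate 4 it called 298 and 11. Of the genes past the fold, 85.3% were higher, against 69.3% after quantile normalization, 69.3% with the MSC filter and 61.4% after centring.

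**Figure D1:**
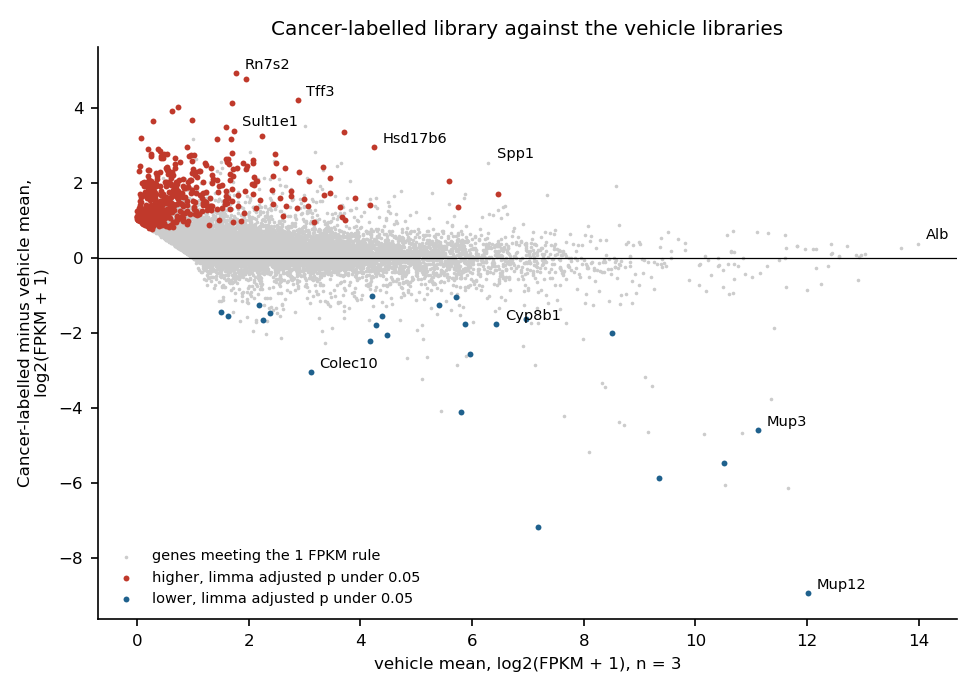
Each point is 1 of 12111 genes: the x axis is the mean of 3 vehicle libraries and the y axis the difference of the Cancer-labelled library from that mean, both on the log2(FPKM + 1) scale. Red points (504) are higher and blue points (24) lower at a limma adjusted p below 0.05; most red points lie at vehicle levels near 0, and the lowest blue point is Mup12 at -8.93.

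Genes of bile duct epithelium were higher in the Cancer-labelled library as a whole list. All 21 markers in the table exceeded all 6 other libraries, against 47.1% of the genes tested, and 19 rose in limma. Of the 21, 17 met the expression rule only through the Cancer-labelled library, which the rule favours for a higher level there. The median difference was 2.00, against 0.25 over all genes tested. It was 1.69 after centring and 1.69 after quantile normalization. Summed over the list, the level was 627 FPKM in the Cancer-labelled library, 57.2 to 187 FPKM in the vehicle libraries and 42.0 to 167 FPKM in the MSC libraries. The 4 markers at 1 FPKM in all 3 MSC libraries were all above the 6 others too, with a median difference of 2.30.

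Krt19, a keratin of bile duct cells on chromosome 11 (100140810 to 100146120, minus strand, in the deposited coordinates), was at 24.4 FPKM in the Cancer-labelled library, at 1.11, 0.868 and 0.991 FPKM in the vehicle libraries and at 0.805, 0.601 and 0.217 FPKM in the MSC libraries. No other library was above 1.11 FPKM, and the Cancer-labelled library stood alone (log2 difference 3.67, SE 0.26, limma adjusted p = 0.00073). Cldn4, a tight junction claudin, was at 14.4 FPKM, against 0.271, 0.222 and 0.183 FPKM in the vehicle libraries and 0.980, 0.138 and 0.0836 FPKM in the MSC libraries. MSC replicate 0 held the most of the others, well under the Cancer-labelled library (3.65, SE 0.33, adjusted p = 0.00138). Epcam, an epithelial adhesion molecule, was at 21.6 FPKM, against 4.01, 2.25 and 1.08 FPKM in the vehicle libraries and 2.91, 1.25 and 1.49 FPKM in the MSC libraries. Vehicle replicate 1 was the nearest (2.81, SE 0.47, adjusted p = 0.0147). The chloride channel Cftr was at 3.24 FPKM, and at 0.0127 to 0.128 FPKM in all others. The transcription factor Sox9, which marks duct cells, was at 5.98 FPKM, against a maximum of 1.24 FPKM elsewhere. It rose in limma, as did Krt7 at 5.07 FPKM.

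Spp1 and Krt23 were the 2 markers that did not pass limma. Spp1, the secreted phosphoprotein osteopontin, was at 453 FPKM in the Cancer-labelled library, at 158, 64.7 and 45.1 FPKM in the vehicle libraries and at 139, 31.4 and 28.7 FPKM in the MSC libraries (2.54, SE 0.90, limma adjusted p = 0.189). Vehicle replicate 1 and MSC replicate 0 were the highest of the others for it. Vehicle replicate 1 was the highest vehicle library for 19 of the 21 markers.

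**Figure D2:**
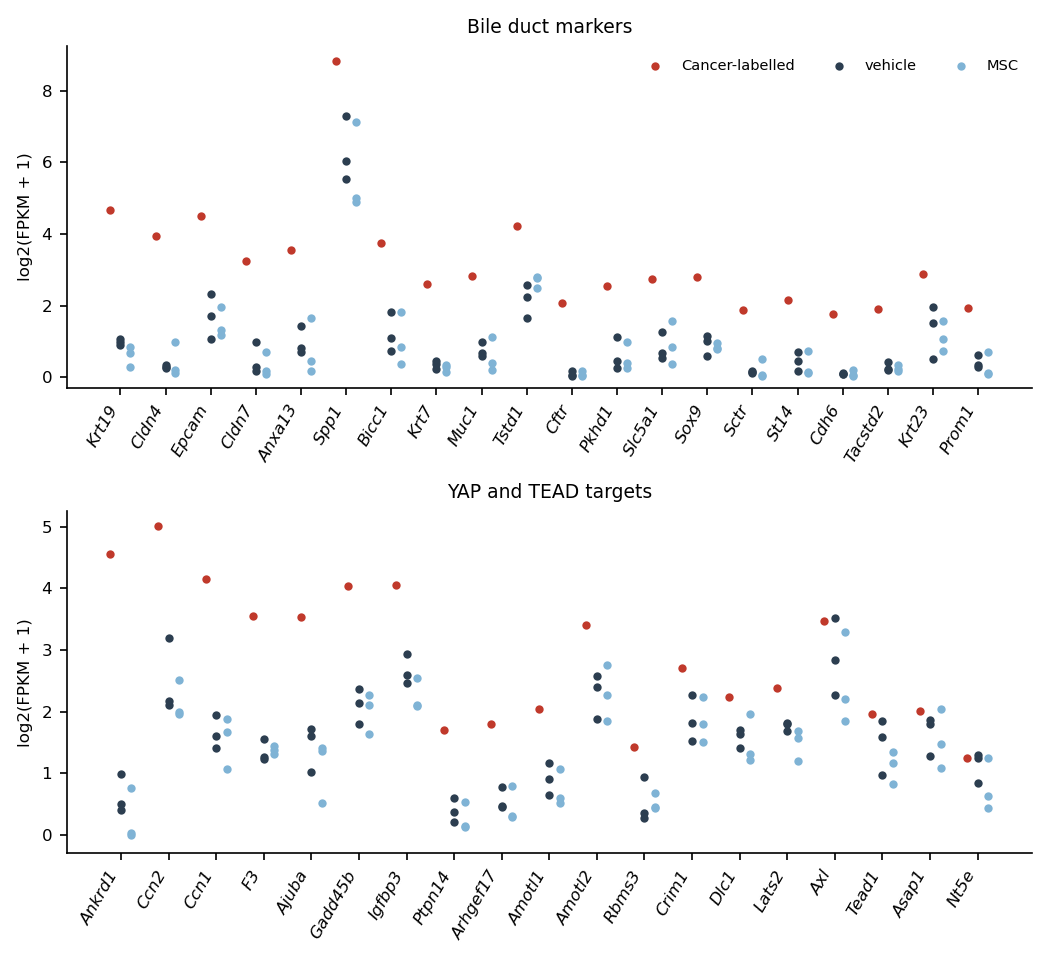
Levels in each library on the log2(FPKM + 1) scale, for 20 of the 21 bile duct markers (top) and the 19 YAP and TEAD targets that met the expression rule (bottom), 1 point per library and genes in order of the size of the difference. The single Cancer-labelled library lies above the 3 vehicle and 3 MSC libraries for every bile duct marker shown and for 16 of the 19 targets.

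Other secreted and surface proteins of epithelium were among the largest differences. Mmp7, a protease of injured duct and gut epithelium, was at 104 FPKM in the Cancer-labelled library, at 4.99, 2.67 and 1.62 FPKM in the vehicle libraries and at 6.67, 0.628 and 0 FPKM in the MSC libraries (4.76, SE 0.94, limma adjusted p = 0.0259). Tff3, a trefoil peptide of mucus-secreting epithelium, was at 134 FPKM, against 5.31, 7.05 and 6.82 FPKM in the vehicle libraries and 7.98, 8.95 and 18.97 FPKM in the MSC libraries (4.20, SE 0.42, adjusted p = 0.00195). Neither overlapped with any other library. The tetraspanin Tspan8 was at 33.0 FPKM, the surface glycoprotein Cd24a at 43.9, E-cadherin (Cdh1) at 28.1 and the annexin Anxa3 at 23.1, and all 4 rose, with vehicle maxima of 3.60, 6.65, 4.51 and 2.79 FPKM. Cldn6, a claudin of fetal epithelium, was at 7.56 FPKM and at 0 to 0.446 FPKM elsewhere. Podoplanin (Pdpn) was at 8.69 FPKM, against at most 0.591, and Ly6c1, a surface protein of endothelium and leukocytes, was at 8.46 FPKM, against at most 0.406. The doublecortin family gene Dcdc2a was at 8.99 FPKM, against at most 0.782. Each of these 4 genes rose in limma and met the expression rule only through the Cancer-labelled library.

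Genes of fetal liver and liver tumours had a median difference of 1.51, against 0.25 over all genes tested, and 1.20 after centring. Of 47 genes in the table, 28 exceeded all 6 other libraries (59.6%, against 36.0% of all genes in the table) and 2 lay below them. Of the 30 that met the rule, 10 only through the Cancer-labelled library, 27 were above the vehicle mean, 9 rose in limma and none fell. Among the 19 at 1 FPKM in all 3 MSC libraries, 16 were above the vehicle mean and the median was 1.57. Several of the 9, among them Tff3, Epcam, Cd24a and Tspan8, are duct or gut epithelial genes described above. Sox4, a transcription factor of immature cells, rose to 7.35 FPKM in the Cancer-labelled library, against at most 1.04 in the others, and the protease inhibitor Slpi rose to 18.1 FPKM, against at most 4.47. The imprinted fetal RNA H19 was at 11.9 FPKM, at 3.92, 0.606 and 0.145 FPKM in the vehicle libraries and at 4.31, 2.27 and 0.127 FPKM in the MSC libraries. It was highest in the Cancer-labelled library, but the spread among the others was wide (2.63, SE 0.91, limma adjusted p = 0.176). The hepatocellular tumour markers Afp and Gpc3 did not meet the expression rule. Alpha-fetoprotein (Afp) was at 0.468 FPKM, within the range of 0.238 to 0.694 of the 6 others. Glypican 3 (Gpc3) was at 0.761 FPKM, below vehicle replicate 1 at 1.46.

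Of 44 genes of cell division in the table, 8 exceeded all others (18.2%, against 36.0% of all genes in the table). Of the 12 that met the rule, 7 only through the Cancer-labelled library, 1 passed limma, too few to set beside the 4.16% of all genes tested. Cyclin D2 (Ccnd2), which drives entry into the cell cycle, was that gene, at 4.71 FPKM against 1.35, 0.441 and 0.381 FPKM in the vehicle libraries and at most 0.916 in the MSC libraries (1.77, SE 0.33, limma adjusted p = 0.0213). The proliferation antigen Mki67 was at 0.711 FPKM, below vehicle replicate 1 at 0.755. Cyclin D1 (Ccnd1) was at 24.2 FPKM, against 17.4, 5.68 and 4.63 FPKM in the vehicle libraries and 10.03, 18.2 and 9.84 FPKM in the MSC libraries (1.51, adjusted p = 0.249). Its level in vehicle replicate 1 and MSC replicate 1 was close to that of the Cancer-labelled library.

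YAP and TEAD target genes were higher as a list. Of 21 in the table, 17 exceeded all 6 others (81.0%, against 36.0% of all genes in the table) and none lay below them. Of the 19 that met the rule, 7 only through the Cancer-labelled library, 9 rose in limma, and the median difference was 1.13, against 0.25 over all genes tested. It was 0.82 after centring and 0.89 after quantile normalization. Among the 11 at 1 FPKM in all 3 MSC libraries, all were higher than the vehicle mean, with a median of 1.12. The list's summed level was 174 FPKM in the Cancer-labelled library, 39.7 to 56.8 FPKM in the vehicle libraries and 27.6 to 47.9 FPKM in the MSC libraries.

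Ankrd1, an ankyrin repeat protein whose promoter is shown above, was at 22.4 FPKM in the Cancer-labelled library, at 0.414, 0.328 and 0.992 FPKM in the vehicle libraries and at 0.698, 0.0181 and 0 FPKM in the MSC libraries. No other library reached 1 FPKM (3.91, SE 0.35, limma adjusted p = 0.00138). Ccn1, a secreted matrix protein, was at 16.7 FPKM, against 2.86, 2.03 and 1.65 FPKM in the vehicle libraries and 2.66, 2.16 and 1.11 FPKM in the MSC libraries (2.50, SE 0.35, adjusted p = 0.00757). Its relative Ccn2, connective tissue growth factor, was at 31.1 FPKM, against 8.13, 3.30 and 3.48 FPKM in the vehicle libraries and 4.68, 2.87 and 2.98 FPKM in the MSC libraries (2.52, SE 0.43, adjusted p = 0.0161). Neither overlapped with any other library, and vehicle replicate 1 was the highest of the others for both. Tissue factor (F3), which starts coagulation, was at 10.8 FPKM and at 1.34 to 1.92 FPKM in the others, and the LIM protein Ajuba, which restrains the Hippo kinases, at 10.5 FPKM and at 0.427 to 2.27 FPKM in the others. Both rose. The stress gene Gadd45b was at 15.4 FPKM, against at most 4.14, and rose too. Bile duct markers moved with these genes, with the sums given above, and their part in the YAP target values was not tested.

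Of the other stress genes, the small heat shock protein Cryab stood apart. It was at 13.8 FPKM in the Cancer-labelled library, at 2.06, 2.37 and 2.08 FPKM in the vehicle libraries and at 2.05, 1.96 and 2.13 FPKM in the MSC libraries (2.22, SE 0.21, limma adjusted p = 0.00172). The 6 others hardly varied. The inducible chaperone Hspa1a, which has a near-identical copy, also rose, to 3.84 FPKM against 1.13 to 1.25 in the vehicle libraries. These were the 2 of 19 heat shock genes past limma, too few to set beside the 4.16% of all genes tested. The list's median was 0.34, or 0.03 after centring. All 19 immediate early genes that met the rule, 4 of them only through the Cancer-labelled library, were higher than the vehicle mean, against 78.0% of the genes tested, and 3 rose. Of 24 in the table, 11 exceeded all others (45.8%, against 36.0% of all genes in the table). Of the 19 that met the rule, 8 exceeded all others, against 47.1% of the genes tested. The unfolded protein response list had a median of 0.03, or -0.28 after centring, with no gene called among 27. The p53 target list had a median of 0.15, or -0.16 after centring. In it 1 of 16 genes passed limma, too few to set beside the 0.198% of all genes tested that fell. That gene was the kinase Plk3, which fell to 24.5 FPKM, against 47.2, 54.4 and 53.5 FPKM in the vehicle libraries (adjusted p = 0.0437).

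Immunoglobulin transcripts were higher, and all but 1 of the B cell markers were too low to meet the expression rule. Igkc, the kappa light chain constant gene, was at 196 FPKM in the Cancer-labelled library, at 39.9, 48.0 and 54.3 FPKM in the vehicle libraries and at 36.6, 49.3 and 50.02 FPKM in the MSC libraries (2.04, SE 0.29, limma adjusted p = 0.00893). Igha, the heavy chain of mucosal antibody, was at 23.5 FPKM, against 2.05, 2.96 and 5.21 FPKM in the vehicle libraries and 3.67, 2.29 and 3.17 FPKM in the MSC libraries (2.54, SE 0.38, adjusted p = 0.0104). Ighg2c was at 35.8 FPKM, against 8.52, 10.9 and 10.8 FPKM in the vehicle libraries. Constant genes are alike in sequence, and the labels do not say how reads shared between them were divided. Of 20 immunoglobulin and plasma cell genes in the table, 12 exceeded all others (against 47.1% of the genes tested). Of the 11 that met the rule, 2 only through the Cancer-labelled library, 6 rose. Of 16 B cell markers, 2 exceeded all others (12.5%, against 36.0% of all genes in the table). Only 1 of the 16 met the rule, so the list can show little about these cells. The 16 summed to 14.05 FPKM in the Cancer-labelled library, 10.1 to 12.2 FPKM in the vehicle libraries and 7.37 to 16.3 FPKM in the MSC libraries. Ighm and Ighd are in both this list and the immunoglobulin list.

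Ccl2 and Cxcl16, a chemokine for monocytes and one for T cells, rose. Ccl2 was at 13.5 FPKM in the Cancer-labelled library, at 1.04, 1.24 and 0.441 FPKM in the vehicle libraries and at 2.17, 0.903 and 0.0917 FPKM in the MSC libraries (2.96, SE 0.51, limma adjusted p = 0.0159). Cxcl16 was at 20.3 FPKM, against 4.69, 2.35 and 2.12 FPKM in the vehicle libraries and 5.22, 2.64 and 1.66 FPKM in the MSC libraries (2.45, SE 0.48, adjusted p = 0.0255). For both, MSC replicate 0 was the highest of the others. Of 40 cytokine and chemokine genes in the table, 21 exceeded all others (52.5%, against 36.0% of all genes in the table). Of the 25 that met the rule, 13 only through the Cancer-labelled library, 14 exceeded all others, against 47.1% of the genes tested. Of these 25, 5 rose. Among the 11 at 1 FPKM in all 3 MSC libraries, 5 were above the vehicle mean and the median was -0.02.

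Genes of MHC class II, which present antigen to helper T cells, exceeded all others in 10 of 11 cases in the table (90.9%, against 36.0% of all genes in the table). The 7 that met the rule, 1 only through the Cancer-labelled library, were all above the vehicle mean, with a median of 1.33, or 1.02 after centring, and none passed limma. Vehicle replicate 1 was the highest vehicle library for all 11, and the list summed to 397 FPKM in the Cancer-labelled library, 102 to 281 FPKM in the vehicle libraries and 65.9 to 226 FPKM in the MSC libraries. Of 24 markers of recruited and lipid-associated macrophages, 16 exceeded all others (66.7%). Of the 22 that met the rule, 6 only through the Cancer-labelled library, 1 rose, near the 4.16% over all genes tested. For Kupffer cells, the resident macrophages, 2 of 14 lay above (14.3%) and 3 below all others (21.4%), with none called. Of 16 neutrophil genes, 1 lay above (6.25%) and 4 below all others (25.0%). Over all genes in the table these shares were 36.0% and 3.65%. The neutrophil list summed to 155 FPKM, within the vehicle range of 98.3 to 410 FPKM. Only 4 of its genes met the rule, and 1 of these lay below all others. The neutrophil gene S100a8 was lowest in the Cancer-labelled library, at 1.11 FPKM against 3.01, 3.98 and 6.33 FPKM in the vehicle libraries and 10.95, 1.33 and 5.22 FPKM in the MSC libraries (adjusted p = 0.400). None of the 31 interferon-stimulated genes that met the rule passed limma, and their median was -0.10. In bulk tissue, fewer cells of a type and less RNA per cell cannot be told apart.

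Matrix genes were higher in the Cancer-labelled library than in any other for 33 of 46 in the table (71.7%, against 36.0% of all genes in the table), by amounts that vehicle replicate 1 partly shared. Vehicle replicate 1 was the highest vehicle library for 44 of the 46. The fibrillar collagen gene Col1a1 was at 8.05 FPKM, against 6.27, 1.46 and 0.672 FPKM in the vehicle libraries and 3.47, 2.13 and 0.321 FPKM in the MSC libraries (1.54, SE 0.82, limma adjusted p = 0.378). Col3a1 was at 11.8 FPKM, against 10.95, 3.35 and 1.83 FPKM in the vehicle libraries (1.28, SE 0.76, adjusted p = 0.431). For both, vehicle replicate 1 came close to the Cancer-labelled library. Of 40 matrix genes that met the rule, 17 only through the Cancer-labelled library, 2 rose (Thbs1 and Lama4), near the 4.16% over all genes tested. Among the 20 at 1 FPKM in all 3 MSC libraries, 16 were above the vehicle mean and none passed limma. Of 23 stellate cell and myofibroblast markers in the table, 15 lay above all others (65.2%, against 36.0% of all genes in the table). Another 4 lay below them (17.4%, against 3.65%). Of the 20 that met the rule none passed limma, and smooth muscle actin (Acta2) was at 3.12 FPKM against 1.55, 0.829 and 1.23 FPKM in the vehicle libraries (adjusted p = 0.0921).

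Among hepatocyte genes, the major urinary proteins were the largest difference in the other direction. Of 21 in the table, 18 lay below all 6 other libraries (85.7%, against 3.65% of all genes in the table), and 4 fell in limma (Mup12, Mup19, Mup10 and Mup3). The list's median was -4.44, against 0.25 over all genes tested, and it was -4.75 after centring and -4.41 after quantile normalization. Summed, they stood at 5809 FPKM in the Cancer-labelled library (1.45% of all FPKM), at 18250 to 54685 FPKM in the vehicle libraries (4.72 to 12.7%) and at 16088 to 73255 FPKM in the MSC libraries (3.13 to 16.1%). The copies are nearly identical, so reads may be divided unevenly between them, and the sum is the safer value.

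Mup12 (chromosome 4, 60737383 to 60741326, minus strand) was at 7.50 FPKM in the Cancer-labelled library, at 1292, 6542 and 8470.1 FPKM in the vehicle libraries and at 2514, 1627 and 16072 FPKM in the MSC libraries (-8.93, SE 1.35, limma adjusted p = 0.0104). Mup3 was at 90.6 FPKM, against 1460.0, 2174 and 3444 FPKM in the vehicle libraries and 1593, 1291 and 5738 FPKM in the MSC libraries (-4.60, SE 0.85, adjusted p = 0.0201). The other libraries varied several-fold for both, and the Cancer-labelled library lay far below all of them. Mup20, the male pheromone darcin, did not follow. It was at 5103 FPKM, within the vehicle range of 3663 to 13538 FPKM, and made up most of the family's sum in the Cancer-labelled library.

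Genes with higher levels in male liver mostly lay lower, and 7 genes with higher levels in female liver rose. Of 25 male-biased genes in the table, 11 lay below all others (44.0%, against 3.65% of all genes in the table) and 1 above, and none passed limma. The list shares Mup20 and Mup21 with the family above, and Mup21 is counted among the 11. Cyp7b1, an oxysterol hydroxylase, was at 6.82 FPKM, against 24.4, 34.9 and 45.5 FPKM in the vehicle libraries and 23.8, 16.4 and 57.0 FPKM in the MSC libraries (-2.16, SE 0.59, limma adjusted p = 0.0928). The organic anion carrier Slco1a1 was at 1.14 FPKM, against 6.504 to 17.1 FPKM in the vehicle libraries (adjusted p = 0.187). The Cancer-labelled library was the lowest for each. Of 21 female-biased genes, 10 lay above all others (47.6%, against 36.0% of all genes in the table) and 1 below. Prom1, among the 7 that rose, also stands in the bile duct list and in the list of fetal liver and liver tumour genes. Of the 13 that met the rule, 5 only through the Cancer-labelled library, 8 lay above all others, against 47.1% of the genes tested. Of these 13, 7 rose. Among the 6 at 1 FPKM in all 3 MSC libraries, 4 were above the vehicle mean, 1 rose and the median was 0.48.

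Sult1e1, the estrogen sulfotransferase, was at 34.0 FPKM in the Cancer-labelled library, at 1.58, 1.95 and 3.84 FPKM in the vehicle libraries and at 0.937, 1.40 and 1.16 FPKM in the MSC libraries (3.39, SE 0.35, limma adjusted p = 0.00199). Fmo2, a flavin monooxygenase, was at 47.2 FPKM, against 15.2, 10.4 and 6.11 FPKM in the vehicle libraries and 7.06, 5.04 and 3.77 FPKM in the MSC libraries (2.14, SE 0.44, adjusted p = 0.0314). Cyp2b10, a drug-inducible P450 enzyme, was at 7.90 FPKM and at 0.131 to 0.534 FPKM in all others (2.72, SE 0.23, adjusted p = 0.00132). None of these 3 genes overlapped with any other library. Sult1e1 and Cyp2b10 also stand in a list of targets of the drug-sensing receptor CAR, written after its values were seen. The female-biased genes Cyp2b9 and Cyp2b13 stand in both lists too. Of 14 CAR targets in the table, 8 lay above all others (57.1%, against 36.0% of all genes in the table) and 1 below. The pericentral gene Cyp3a11, on that list, was at 1440 FPKM, against 596, 670 and 137 FPKM in the vehicle libraries. The MSC libraries held 493, 400 and 147 FPKM. It lay above all others without passing limma, and the vehicle libraries varied widely (1.92, SE 0.93). The part of sex bias or of CAR was not tested.

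Of the 23 pericentral genes that met the rule, 20 were below the vehicle mean, against 2669 of the 12111 genes tested, and of the 24 periportal genes 21 were above it, against 78.0%. Of 25 pericentral genes in the table, 11 lay below all 6 others (44.0%, against 3.65% of all genes in the table) and 1 above, and 4 fell in limma. Of 25 periportal genes, 15 lay above all others (against 47.1%) and 2 below, and 4 rose. The medians were -0.96 for the 23 pericentral genes and 0.52 for the 24 periportal genes that met the rule, and -1.27 and 0.21 after centring. Against the MSC libraries the medians were -0.36 and 0.70.

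Cyp2c37, a pericentral P450 enzyme, was at 9.53 FPKM in the Cancer-labelled library, at 43.7, 70.3 and 76.0 FPKM in the vehicle libraries and at 29.1, 23.4 and 60.9 FPKM in the MSC libraries (-2.57, SE 0.51, limma adjusted p = 0.0257). The glutamate carrier Slc1a2 was at 2.86 FPKM, against 17.9, 16.3 and 17.0 FPKM in the vehicle libraries and 3.41, 10.9 and 5.18 FPKM in the MSC libraries (-2.22, SE 0.46, adjusted p = 0.0304). MSC replicate 0 was close to the Cancer-labelled library. Ornithine aminotransferase (Oat) was at 89.6 FPKM, against 311, 368 and 410.2 FPKM in the vehicle libraries (-2.00, SE 0.38, adjusted p = 0.0237), but the MSC libraries held 82.1, 150.5 and 125 FPKM. Glutamine synthetase (Glul) was at 55.3 FPKM, against 284, 272 and 208 FPKM in the vehicle libraries (adjusted p = 0.111) and 45.9, 172 and 57.2 FPKM in the MSC libraries. For Oat and Glul the Cancer-labelled library therefore lay under the vehicle range and inside the MSC range.

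On the periportal side, Hsd17b6, a steroid and retinol dehydrogenase, was at 146 FPKM in the Cancer-labelled library, at 23.4, 24.3 and 10.2 FPKM in the vehicle libraries and at 37.1, 29.9 and 14.4 FPKM in the MSC libraries (2.95, SE 0.57, limma adjusted p = 0.0246). Etnppl, which degrades phosphoethanolamine, was at 10.1 FPKM and at 0.797 to 2.36 FPKM in the others, and the mitochondrial aldehyde dehydrogenase Aldh1b1 at 47.5 FPKM and at 12.3 to 21.7 FPKM in the others. Both rose. Cdh1, described above, was the remaining gene. The urea cycle enzyme Ass1 was at 973 FPKM, against 678, 605 and 733 FPKM in the vehicle libraries (0.54, SE 0.38, adjusted p = 0.510). It was the highest of the 7 without passing the test.

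**Figure D3:**
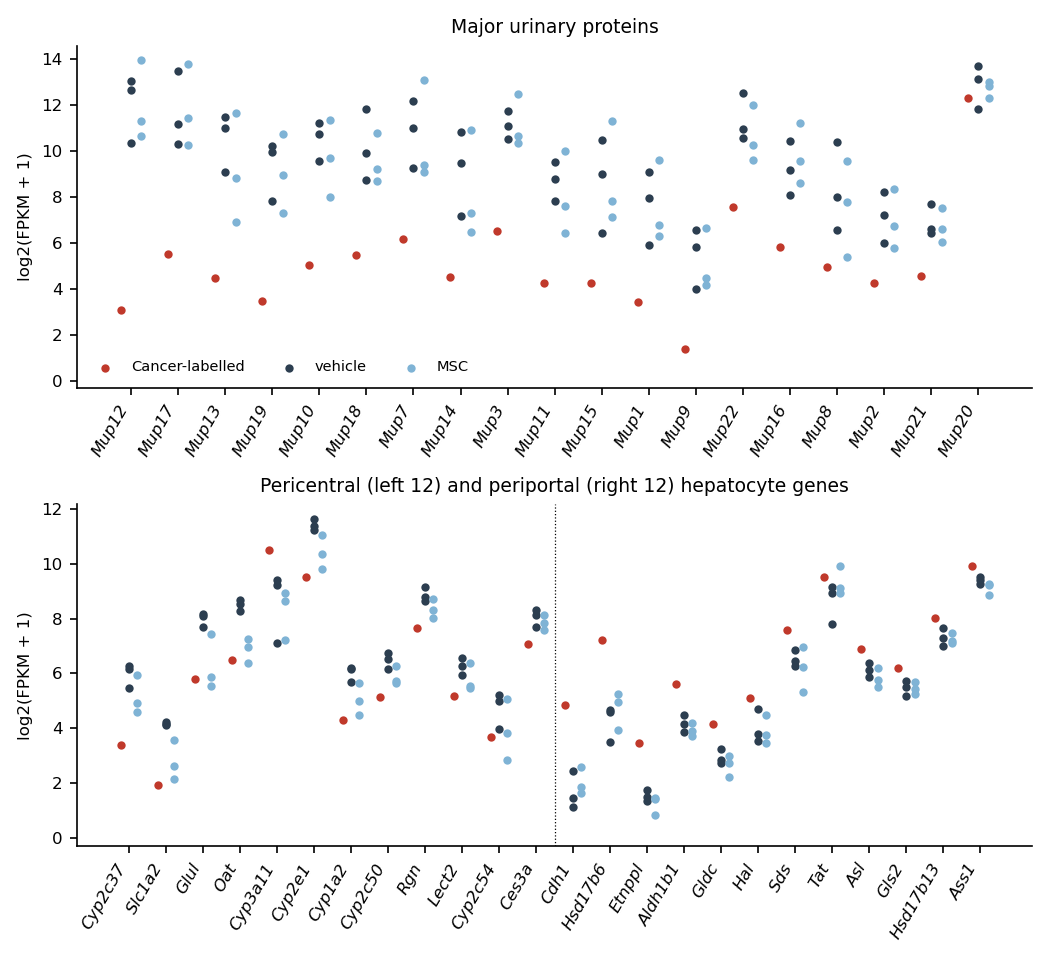
Levels in each library on the log2(FPKM + 1) scale, for the 19 major urinary proteins that met the expression rule (top) and for 12 pericentral and 12 periportal genes, taken in order of the size of the difference with 1 pericentral gene not shown (bottom, left and right of the dotted line), 1 point per library. The Cancer-labelled library lies below all others for 18 major urinary proteins, Mup20 excepted, and within the MSC range for Oat and Glul.

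Several single liver genes also fell. Colec10 (chromosome 15, 54410774 to 54466358, plus strand), a collectin that binds microbial sugars, was at 0.0438 FPKM in the Cancer-labelled library, at 6.14, 7.48 and 9.74 FPKM in the vehicle libraries and at 6.63, 6.28 and 8.73 FPKM in the MSC libraries. It was close to 0 in the Cancer-labelled library and even across the 6 others (-3.05, SE 0.29, limma adjusted p = 0.00172). Angptl6, an angiopoietin-like secreted factor, was at 0.513 FPKM, against 3.18, 4.80 and 3.53 FPKM in the vehicle libraries and 3.16, 3.28 and 4.34 FPKM in the MSC libraries (-1.66, SE 0.27, adjusted p = 0.0134). Both met the expression rule only through the vehicle libraries, and both also lay under every MSC library.

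Dio1, the deiodinase that activates thyroid hormone, was at 16.2 FPKM in the Cancer-labelled library, at 53.3, 56.2 and 62.8 FPKM in the vehicle libraries and at 57.0, 39.0 and 54.9 FPKM in the MSC libraries (-1.76, SE 0.28, limma adjusted p = 0.0126). Cyp8b1, the sterol hydroxylase needed for cholic acid, was at 24.5 FPKM, against 84.9, 92.0 and 80.5 FPKM in the vehicle libraries and 46.2, 77.7 and 56.7 FPKM in the MSC libraries (-1.76, SE 0.31, adjusted p = 0.0185). The sulfotransferase Sult2a8 was at 2.28 FPKM, against 35.5, 68.9 and 68.2 FPKM in the vehicle libraries and 16.6, 16.3 and 94.4 FPKM in the MSC libraries (-4.10, SE 0.87, adjusted p = 0.0339). All 3 genes were lowest in the Cancer-labelled library. The activin subunit gene Inhbe, at 6.22 FPKM against 17.7 to 22.5 FPKM in the vehicle libraries, and the coenzyme A synthesis kinase Pank1, at 17.0 FPKM against 39.8 to 44.5 FPKM, fell as well.

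Abundant products of hepatocytes lay mostly within the range of the other libraries. Albumin (Alb) was at 21089 FPKM, against 21069, 16309.9 and 12350.3 FPKM in the vehicle libraries, and the hepatocyte transcription factor Hnf4a at 91.0 FPKM, against 123, 122 and 121 FPKM in the vehicle libraries and 102, 76.9 and 109 FPKM in the MSC libraries. Of 40 secreted and synthetic genes, none passed limma, and the median was -0.19. The 10 hepatocyte markers summed to 34409 FPKM in the Cancer-labelled library, 26592 to 33155 FPKM in the vehicle libraries and 28678 to 43359 FPKM in the MSC libraries, and Cyp2e1 was the only one of them below all others. Of 30 acute phase genes, 24 were lower than the vehicle mean, against 2669 of the 12111 genes tested, with none past limma. The list summed to 11652 FPKM in the Cancer-labelled library, against 10736, 13338 and 34330 FPKM in vehicle replicates 1, 3 and 4. In the MSC libraries it summed to 8436 to 22230 FPKM. Of the 30, 5 lay below all others (16.7%, against 4.62% of the genes tested) and 1 above. Serum amyloid A1 (Saa1) was at 59.7 FPKM, against 137, 351 and 3356 FPKM in the vehicle libraries and 190.0, 41.3 and 383 FPKM in the MSC libraries, so its vehicle mean rests on replicate 4.

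The series title names 5 genes of fatty acid metabolism and PPAR signalling, and in these the Cancer-labelled library lay with the vehicle libraries. Acot1, an acyl-CoA thioesterase, was at 40.1 FPKM, against 29.2, 57.8 and 58.4 FPKM in the vehicle libraries and 6.13, 10.1 and 18.98 FPKM in the MSC libraries. Cyp4a14, a fatty acid hydroxylase, was at 806 FPKM, against 292, 945 and 1044 FPKM in the vehicle libraries and 217, 182 and 216 FPKM in the MSC libraries. Acot1, Acot2, Acot3, Cyp4a10 and Cyp4a14 all lay inside the vehicle range and above every MSC library. Their differences from the vehicle mean were -0.20, -0.06, -0.76, 0.01 and 0.29, and none passed limma. The last 2, for Cyp4a10 and Cyp4a14, turned negative after centring. Of 39 PPARalpha targets that met the rule, none passed. Cholesterol synthesis genes had a median of -0.10 and no gene past limma.

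**Figure D4:**
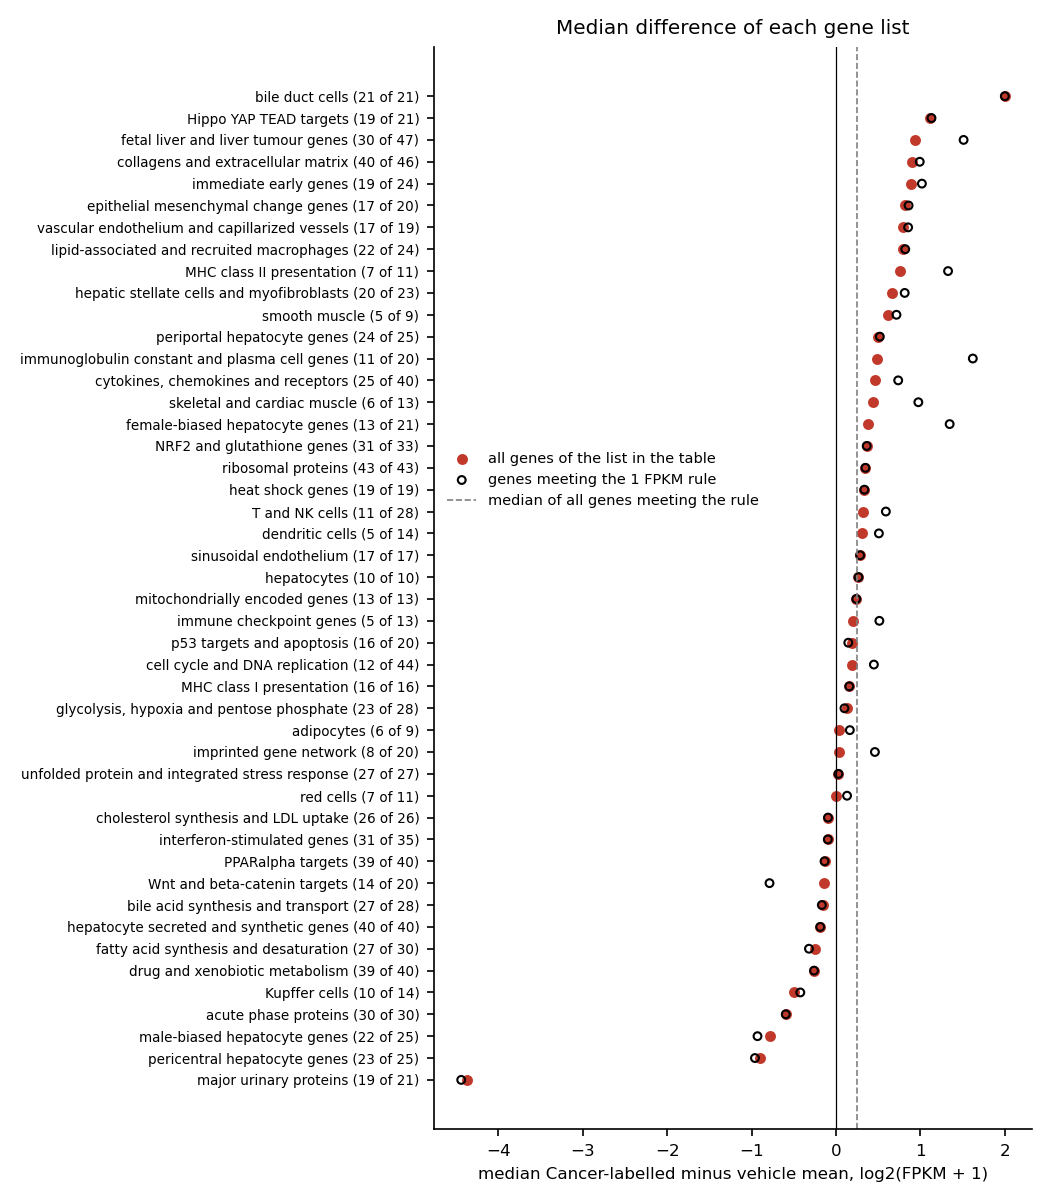
Median difference of each gene list between the Cancer-labelled library and the vehicle mean on the log2(FPKM + 1) scale, for lists with at least 5 genes meeting the expression rule (numbers in brackets: meeting the rule, of those in the table). Filled points use all genes of the list in the table and open points only those meeting the rule; bile duct cells are at the top at 2.00 and major urinary proteins at the bottom at -4.44 (open point).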

How the data were processed

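The deposited table held FPKM per gene for 7 liver libraries, made by the authors; no counts were used, so sequencing depth is unknown and counting intervals were not computed. The submitters' processing notes list StringTie 2.1.6, HISAT2 2.2.1, cutadapt 1.9 and FastQC 0.11.9 and the builds GRCm38 and mm10, without role or order. Strand and multi-mapping settings: not given in the sources used here. All table columns were matched to a sample by title. Values were analysed as log2(FPKM + 1), with a duplicated symbol taken from its row of highest mean. Tests used limma 3.58.1 in R 4.3.3 (lmFit and eBayes with trend, 3 groups, 7 libraries, adjusted p below 0.05), which were tested on simulated data. Figures used matplotlib 3.10.9. Promoters came from RefSeq.

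Gene lists, members and tests were chosen with earlier results of these data known, and no list is independent evidence. Named genes were the 20 largest differences in each direction past limma, outside all 6 other libraries and at 2 FPKM or more in the higher group, up to 5 genes of each list, the 5 genes of the series title and defining markers of lists that moved; identifiers, receptor segments and pseudogenes were left out. Alternatives covered pseudocount, filter, scaling, reference libraries, limma settings and each library left out. A few named genes are not reported here.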

Additional observations from a re-analysis of the deposited data

How the results depend on the processing

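The Cancer-labelled library has no replicate, so no setting measures its own spread, and most limma calls lie at low FPKM. Genes past limma, higher and lower, numbered 504 and 24. They numbered 9 and 4 with a pseudocount of 0.1, 837 higher with 5, 109 and 8 with genes averaging 1 FPKM or more over all 7, 1022 and 13 with no filter, and 24 and 3 with 1 FPKM in all MSC libraries. They numbered 276 higher after quantile normalization, 43 lower after centring, 772 higher against all 6 others, and 47 lower with vehicle libraries only in the fit. Leaving out 1 library gave 277 (without vehicle replicate 3) to 632 (without MSC replicate 0) higher and 11 (without vehicle replicate 3 or 4) to 34 lower; without vehicle replicate 4 it was 298 higher. Genes past the fold, 854 and 147, numbered 1930 higher with a pseudocount of 0.1, 201 and 75 with 5, 311 higher with the MSC filter, 495 higher after quantile normalization, 447 and 281 after centring, and 135 and 37 at a fold of 2; leaving out a vehicle library gave 808 to 1095 and 156 to 162. Lists with a median of at least 1 in size numbered 13, 25 with a pseudocount of 0.1, 5 with 5, and 13 to 18 with a vehicle library left out. Of 57 list medians, 9 changed sign after centring: mitochondrially encoded genes (-0.070), hepatocyte markers (-0.044), MHC class I (-0.15), glycolysis (-0.21), p53 targets (-0.16), the unfolded protein response (-0.28), adipocytes (-0.15), red cells (-0.18) and sinusoidal endothelium (-0.024). Against the MSC libraries 6 did: drug metabolism (0.14), bile acid genes (0.17), PPARalpha targets (0.43), mitochondrially encoded genes (-0.033), hepatocyte markers (-0.078) and the unfolded protein response (-0.39). Against all 6 others 2 did, PPARalpha targets (0.19) and the unfolded protein response (-0.27), and after quantile normalization 3 did, p53 targets (-0.045), sinusoidal endothelium (-0.013) and the unfolded protein response (-0.12). Without vehicle replicate 1 the medians of cholesterol synthesis (0.20), interferon-stimulated genes (0.25) and red cells (-0.47) changed sign. Without replicate 3 those of sinusoidal endothelium (-0.048) and the unfolded protein response (-0.086) did, and without replicate 4 those of adipocytes (-0.14) and the unfolded protein response (-0.063). Against the MSC libraries 8 of 263 genes under the naming rule changed sign, among them Acot1 (1.82), Acot2 (1.45, past limma) and Acot3 (1.34). Of the named genes past limma, 0 changed sign under the alternatives run on single genes. Of 84 named genes past limma, 10 passed under all 11 alternatives run on single genes: Rn7s2, Tff3, Krt19, Sult1e1, Rn7s6, Ly6c1, Colec10, Angptl6, F3 and Cryab. The cause of these shifts was not tested. No paired analysis was possible because the Cancer-labelled library is the only one of its group and its replicate number, 6, is shared with no other library.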

Other observations

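The lists in the next 2 paragraphs were written after their values were seen and serve as description. Short noncoding RNAs of the signal recognition particle and of transcription control stood apart: the 7SL RNA gene Rn7s2 was at 103 FPKM in the Cancer-labelled library, at 1.71, 5.001 and 1.47 FPKM in the vehicle libraries and at 2.56, 4.06 and 3.78 FPKM in the MSC libraries (limma adjusted p = 0.00172). Rn7s1 was at 55.2 FPKM, against at most 4.59 elsewhere, and 7SK (Rn7sk) at 12.6 FPKM, against at most 2.04. The list also holds Rmrp, Rpph1 and replication histone genes. Of its 13 genes in the table, 6 exceeded all others (46.2%, against 36.0% of all genes in the table). Of the 9 that met the rule, 4 only through the Cancer-labelled library, 6 exceeded all others, against 47.1% of the genes tested. These RNAs lack the long tails of messenger RNA and Rn7s1, Rn7s2 and Rn7s6 are close copies. The labels name total RNA and do not describe the library preparation.

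Genes of cilia and of the basement membrane lay mostly above the other libraries, and most of those that met the expression rule did so only through the Cancer-labelled library. Foxj1, the master regulator of motile cilia, was at 8.12 FPKM, against 0.721, 0.421 and 0.0951 FPKM in the vehicle libraries and 0.101 FPKM in MSC replicate 1, with no MSC library above vehicle replicate 1 (limma adjusted p = 0.00232). Of 20 cilium genes in the table, 18 exceeded all others (90.0%, against 36.0% of all genes in the table). Bicc1 and Pkhd1, on this list, are also bile duct markers that rose, and Dcdc2a is described above, so these are not separate results. Of the 12 that met the rule, 9 only through the Cancer-labelled library, 4 rose, none of them among the 3 genes at 1 FPKM in all MSC libraries. Lama5, a laminin chain of epithelial basement membranes, was at 6.72 FPKM, against 0.666, 0.288 and 0.426 FPKM in the vehicle libraries and at most 0.616 in the MSC libraries (adjusted p = 0.00195). Of 27 laminin, integrin and related genes, 25 exceeded all others (92.6%). Of the 24 that met the rule, 14 only through the Cancer-labelled library, 10 rose, 1 of them among the 10 genes at 1 FPKM in all MSC libraries.

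Markers of other tissues were mostly near 0. The cardiac genes Actc1 and Myh6 were at 4.82 and 2.35 FPKM in the Cancer-labelled library and at 3.82 and 2.06 FPKM in vehicle replicate 4, and at or under 0.183 FPKM in every other library. Mesothelium markers Krt19 and Aldh1a2 rose, Aldh1a2 to 7.15 FPKM against at most 0.462, while the defining mesothelium genes Msln and Wt1 were at 0.687 and 0.741 FPKM. The surfactant protein Sftpd rose to 9.36 FPKM, against at most 1.45, and the trefoil peptide Tff2 to 1.97 FPKM, against at most 0.215.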
